A study of Mus musculus with 6 samples.

Results

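The mucins are large glycoproteins that cover the colon surface, and 8 of them were followed here across 6 mice: Muc1, Muc2, Muc3, Muc4, Muc13, Muc20, Muc5ac and Muc6. Every array probe that the platform annotation names with one of these symbols was taken, 16 probes of 45135, whatever its values. The 8 mucins stand beside 19048 named genes on the whole array. Muc1 had 4 probes, Muc2 and Muc5ac 3 each, Muc4 and Muc13 2 each, and Muc20 and Muc6 1 each. Muc3 had 0 probes under that symbol and is not described further. Of the 16 probes 13, from 6 genes, were detected above background on at least 3 of the 6 arrays and were tested.

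Expression was measured on Illumina bead arrays in colon mucosa RNA of C57/B6 mice aged 5 months, 1 array for each of 6 numbered animals. All mice carried the Min mutation of Apc, APC(Min/+), which predisposes to intestinal tumours, and floxed Dnmt3a on both alleles, Dnmt3a(2lox/2lox). The 3 Cre-positive mice also carried the transgene Fabpl(4x at -132)-Cre, and the 3 Cre-negative mice, the controls, did not. Fabpl is the promoter of a fatty acid binding protein gene, and the modified form drives Cre in intestinal epithelium. Per the design text, Dnmt3a, which adds methyl groups to cytosines in CG pairs, was deleted in 30 to 50% of the mucosa cells of Cre-positive mice, so that undeleted cells contributed to every Cre-positive sample. The 3 Dnmt3a probes were detected on 0 arrays, so the arrays did not check the deletion.

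Mucins fall into 2 classes. The secreted gel-forming mucins, Muc2, Muc5ac and Muc6, are packed in the granules of goblet and other mucous cells and swell into the mucus gel on release. Muc2 builds the mucus of the colon, while Muc5ac and Muc6 are known chiefly from the stomach. The membrane mucins, Muc1, Muc3, Muc4, Muc13 and Muc20, are anchored in the apical membrane of epithelial cells, where they form part of the glycocalyx and can signal into the cell. In both classes long stretches rich in serine, threonine and proline carry O-linked glycans, added and extended in the Golgi by a series of glycosyltransferases.

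The genes lie on 4 chromosomes in RefSeq's GRCm38.p6 annotation. Muc6 (chr7:141633459-141655393), Muc2 (chr7:141690340-141754691) and Muc5ac (chr7:141788958-141819227) are neighbours on chromosome 7. Muc4 (chr16:32735886-32782391), Muc20 (chr16:32777419-32797435) and Muc13 (chr16:33794037-33819929) are on chromosome 16, where the annotated spans of Muc4 and Muc20 overlap on opposite strands. Muc1 (chr3:89229056-89233381) is on chromosome 3 and Muc3 (chr5:137134924-137166048) on chromosome 5. The positions of the probes within the genes were not used here.

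The 250 bases before the annotated starts of the 4 genes whose values are described most fully are printed here, because the enzyme deleted in these mice acts on CG pairs. They are RefSeq sequences of GRCm38.p6, read 5′ to 3′ on the strand of the gene, with each CG pair in capitals. Muc13 has 2 annotated starts.
Muc1, chr3:89228806-89229055, plus strand: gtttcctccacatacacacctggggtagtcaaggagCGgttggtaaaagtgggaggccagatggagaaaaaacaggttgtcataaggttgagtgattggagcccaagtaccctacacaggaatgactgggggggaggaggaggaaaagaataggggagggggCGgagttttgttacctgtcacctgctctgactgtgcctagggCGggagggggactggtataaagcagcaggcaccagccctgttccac
Muc2, chr7:141690090-141690339, plus strand: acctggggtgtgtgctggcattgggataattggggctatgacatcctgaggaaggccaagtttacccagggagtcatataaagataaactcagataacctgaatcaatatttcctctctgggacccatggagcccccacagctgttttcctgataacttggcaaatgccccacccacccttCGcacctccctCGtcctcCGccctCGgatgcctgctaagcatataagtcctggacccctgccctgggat
Muc4, chr16:32735636-32735885, plus strand: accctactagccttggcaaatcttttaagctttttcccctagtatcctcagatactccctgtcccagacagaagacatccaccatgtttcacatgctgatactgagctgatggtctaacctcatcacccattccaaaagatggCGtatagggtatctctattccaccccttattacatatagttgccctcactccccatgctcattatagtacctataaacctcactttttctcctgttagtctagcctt
Muc13 first start, chr16:33793787-33794036, plus strand: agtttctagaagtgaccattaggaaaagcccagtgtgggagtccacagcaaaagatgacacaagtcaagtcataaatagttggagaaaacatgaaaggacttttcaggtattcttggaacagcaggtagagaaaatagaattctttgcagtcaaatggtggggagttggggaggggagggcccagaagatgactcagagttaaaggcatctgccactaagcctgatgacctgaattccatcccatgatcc
Muc13 second start, chr16:33794239-33794488, plus strand: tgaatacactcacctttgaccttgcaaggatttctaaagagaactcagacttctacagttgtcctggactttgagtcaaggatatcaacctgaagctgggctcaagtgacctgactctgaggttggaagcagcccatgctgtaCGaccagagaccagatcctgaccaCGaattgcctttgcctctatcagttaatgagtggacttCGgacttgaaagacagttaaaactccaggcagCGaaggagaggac
The windows hold 3 CG pairs in Muc1, 4 in Muc2, 1 in Muc4, and 0 and 4 at the first and second start of Muc13, against a median of 6 over the 32851 RefSeq windows of the same length. Of all windows 37.8% hold as many as Muc1 or fewer, and 18.8% as many as Muc4 or fewer. The motif TATAA, searched on both strands, occurs in the windows of Muc1, Muc2 and Muc4 and in neither window of Muc13, and 22.8% of all windows hold it. Methylation was not measured in these samples.

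Mean array signal ran from 360 to 379 in Cre-negative and from 285 to 368 in Cre-positive mice, and 19339 to 21358 probes per array were detected. Cre-positive replicate 3 had the lowest of these values and stood apart, with correlations to the other arrays of 0.925 to 0.9496 over tested probes, against 0.978 or more between any pair of the other 5. By Xist and Eif2s3y it was female, as were Cre-negative replicates 2 and 3, and the other 3 mice were male. The tissue label was set against marker lists. All 9 markers of absorptive colonocytes and all 8 of epithelium were detected, while Gkn1, Gkn2, Pgc, Lipf and Cldn18, the markers of stomach other than Atp4a, were each detected on fewer than 3 arrays. Of the small intestine markers, Fabp6, an ileal bile acid binding protein, was detected on all 6 arrays at 8.53 to 10.59. Sis, a brush border disaccharidase, was detected in all 3 controls and 1 Cre-positive mouse, at up to 7.52. Apoa1, an apolipoprotein, was at 9.63 in Cre-negative replicate 1 and no higher than 5.60 elsewhere. Their part in the mucin values was not tested.

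Values below are log2 intensities after background correction and quantile normalization, listed for replicates 1, 2 and 3 of a group, and log2 differences are Cre-positive minus Cre-negative with their standard error (SE) from limma. A call needed a Benjamini-Hochberg adjusted p under 0.05 over all 21183 tested probes. Intensities of different probes depend on the probe and are not compared with each other. Of the 13 mucin probes 0 were called, against 0.00472% of all tested probes, which is 1 probe, that of Tff2. At an unadjusted p under 0.05 there were 2, both of Muc1 and both higher, against 2.57% of all tested probes in that direction, and 0 lower, against 2.35% (4.92% in either direction). The log2 difference was above 0 for 10 probes and below 0 for 3, beside 11402 and 9781 of all tested probes. Its median was 0.26, beside 0.02 over all tested probes. Probes of one gene share its RNA, and Muc20 entered the test through its detection in Cre-positive mice alone, so these counts are a description.

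**Figure D1:**
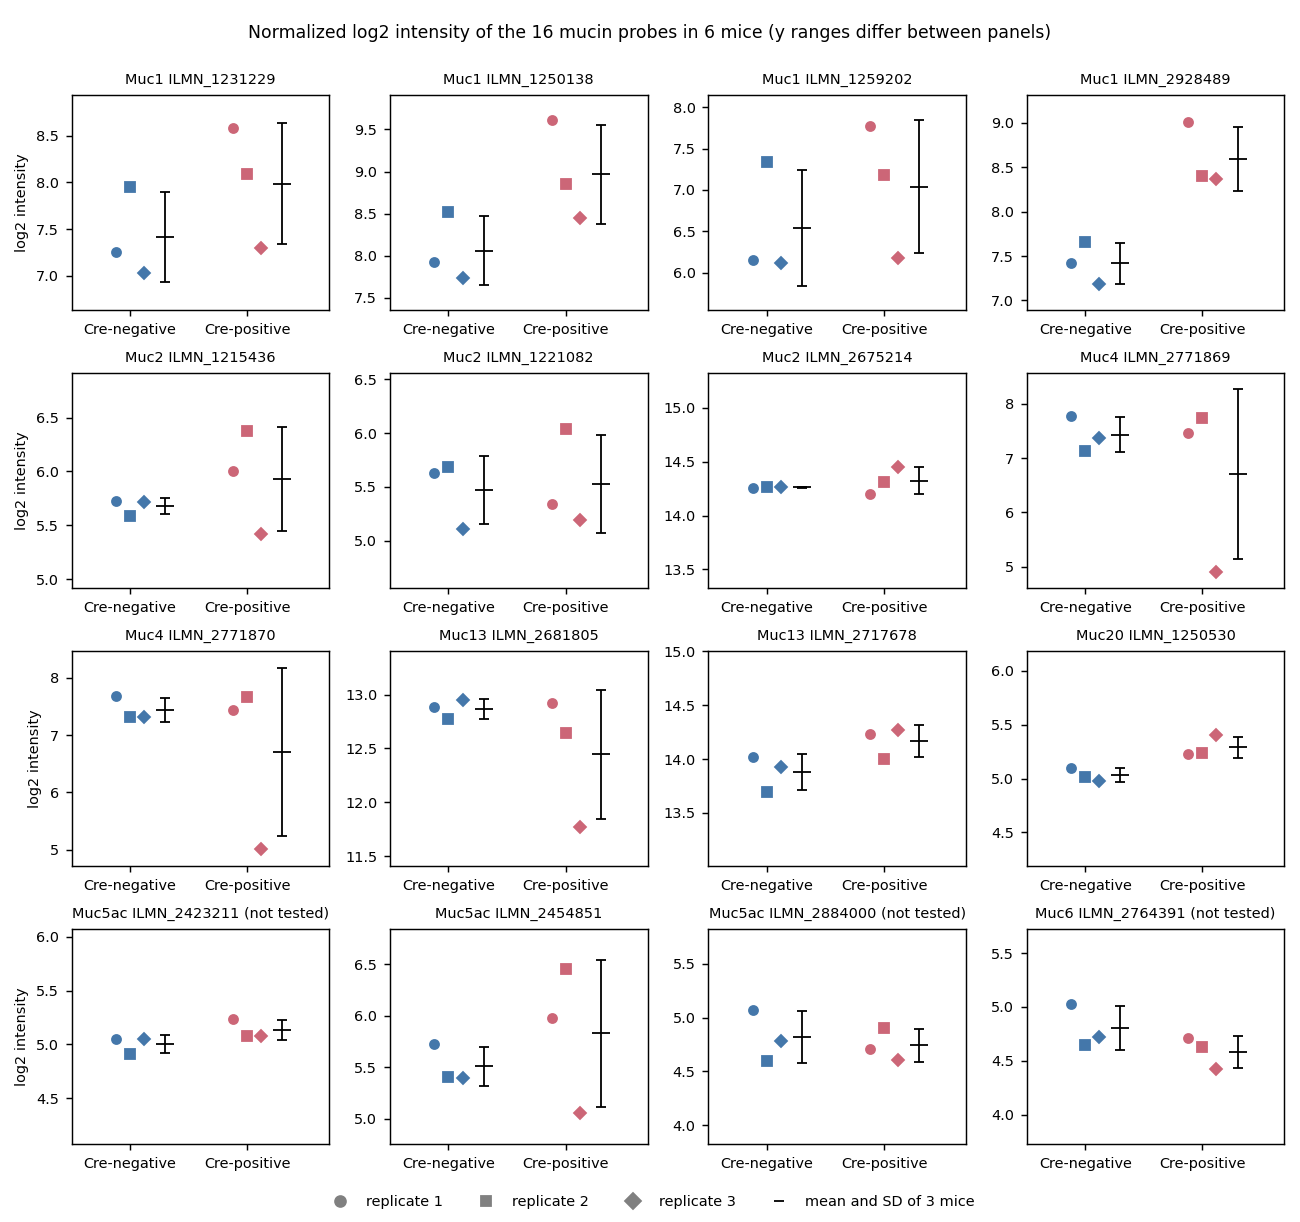
Normalized log2 intensity of each of the 16 mucin probes (panels) in 3 Cre-negative and 3 Cre-positive mice, with the marker shape giving the replicate and the bar the mean and SD. The 3 Cre-positive mice lie above the 3 Cre-negative mice for Muc1 ILMN_2928489. They do so by less for Muc20 ILMN_1250530 and Muc5ac ILMN_2423211, both near background. Cre-positive replicate 3 lies far below the rest in both Muc4 panels.

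Muc2, the main structural protein of colon mucus, was close to equal in the groups by its bright probe. ILMN_2675214 stood at 14.26, 14.27 and 14.26 in Cre-negative and at 14.20, 14.31 and 14.45 in Cre-positive mice. The Cre-positive values lay on both sides of the control values, with replicate 3 the highest of the 6. The difference was 0.06 ± 0.15 (SE), or 1.04-fold with a 95% interval of 0.820 to 1.33 (adjusted p 0.895). As scanned, this probe gave 20581, 20364 and 19917 against 18922, 20385 and 21055. The highest signal on each array was 22749 to 25524, so the probe lay near the top of the scale. Whether this limited the difference was not tested. It ranked between 6 and 41 by intensity among the 45135 probes of an array, and quantile normalization gives probes of equal rank the same value on every array.

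The other 2 Muc2 probes lay near background and varied more between mice. ILMN_1215436 was at 5.73, 5.59 and 5.72 against 6.01, 6.37 and 5.42, a difference of 0.25 ± 0.25 (SE; adjusted p 0.740). Cre-positive replicates 1 and 2 were above all 3 controls and replicate 3 below them. The difference was 0.03 without Cre-positive replicate 2 and 0.51 without replicate 3. ILMN_1221082, detected on 4 arrays, was at 5.63, 5.68 and 5.11 against 5.34, 6.04 and 5.19, a difference of 0.06 ± 0.27 (SE; adjusted p 0.95). Its sign turned in several alternative settings, as did that of the bright probe without Cre-positive replicate 3 and with array weights.

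Muc5ac and Muc6, the gastric gel-forming mucins, were at or near background. Muc6 ILMN_2764391 and Muc5ac ILMN_2884000 were detected on 0 arrays, and Muc5ac ILMN_2423211 on 1, that of Cre-positive replicate 1. Muc5ac ILMN_2454851 was detected on 5 arrays, with 5.73, 5.41 and 5.39 in Cre-negative and 5.98, 6.46 and 5.05 in Cre-positive mice. Replicates 1 and 2 were above the controls, and replicate 3, where the probe was not detected, was the lowest. The difference was 0.32 ± 0.34 (SE; adjusted p 0.755), and 0.71 without Cre-positive replicate 3 (adjusted p 0.922). It was 0.0075 without Cre-positive replicate 2 (adjusted p 0.993) and 0.073 when sex was a term of the model. The bright Muc2 probe, of the neighbouring gene on chromosome 7, was at its highest in Cre-positive replicate 3, where this Muc5ac probe was lowest.

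Muc1, a membrane mucin found on most glandular epithelia, had the probe of smallest p-value among the mucins. By ILMN_2928489 it stood at 7.42, 7.65 and 7.19 in Cre-negative and at 9.01, 8.40 and 8.37 in Cre-positive mice, with group means of 7.42 ± 0.23 and 8.60 ± 0.36 (SD, n = 3). The groups did not overlap, which held for 8.06% of all tested probes in this direction and 6.34% in the other, where no mucin probe was found. The difference was 1.18 ± 0.23 (SE), 2.26-fold with a 95% interval of 1.56 to 3.27. Its unadjusted p of 0.00103 ranked 8 among all tested probes, and its adjusted p was 0.700 by limma, so it was not called. With array weights it was 1.51 (adjusted p 0.0238). The estimation of those weights from the same arrays stopped before it converged, and they put 6.32 on Cre-positive replicate 1, where the probe was highest, and 0.768 and 0.144 on replicates 2 and 3.

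The other 3 Muc1 probes gave smaller differences. ILMN_1250138 was at 7.93, 8.52 and 7.73 against 9.61, 8.85 and 8.45, a difference of 0.91 ± 0.33 (SE; unadjusted p 0.0270, adjusted p 0.700). ILMN_1231229 was at 7.26, 7.95 and 7.03 against 8.58, 8.09 and 7.29, a difference of 0.57 ± 0.37 (SE; adjusted p 0.700). ILMN_1259202 was at 6.16, 7.34 and 6.12 against 7.77, 7.17 and 6.18, a difference of 0.50 ± 0.47 (SE; adjusted p 0.731). In each of these the groups overlapped. Cre-positive replicate 3 lay within the range of the controls in all 3, and replicate 2 did so in ILMN_1259202.

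The 4 Muc1 probes ordered most of the mice alike. Cre-positive replicate 1 was the highest of the 6 in all 4, and Cre-negative replicate 3 the lowest in all 4. They disagreed on Cre-positive replicate 3, which stood 0.95 above the control mean by ILMN_2928489 and 0.39 above it by ILMN_1250138. By ILMN_1231229 and ILMN_1259202 the same mouse stood at -0.12 and -0.36. The mean of the 4 probes per mouse was 7.19, 7.87 and 7.02 against 8.74, 8.13 and 7.57. In that mean the groups overlapped, and the difference of 0.79 was not called either (adjusted p 0.693 over genes). Without Cre-positive replicate 3 the differences of the 4 probes ran from 0.92 to 1.29, with an adjusted p of 0.922 for each. Without Cre-positive replicate 1 they were 0.97 for ILMN_2928489, 0.59 for ILMN_1250138, 0.28 for ILMN_1231229 and 0.14 for ILMN_1259202 (adjusted p 0.652, 0.652, 0.776 and 0.915).

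**Figure D2:**
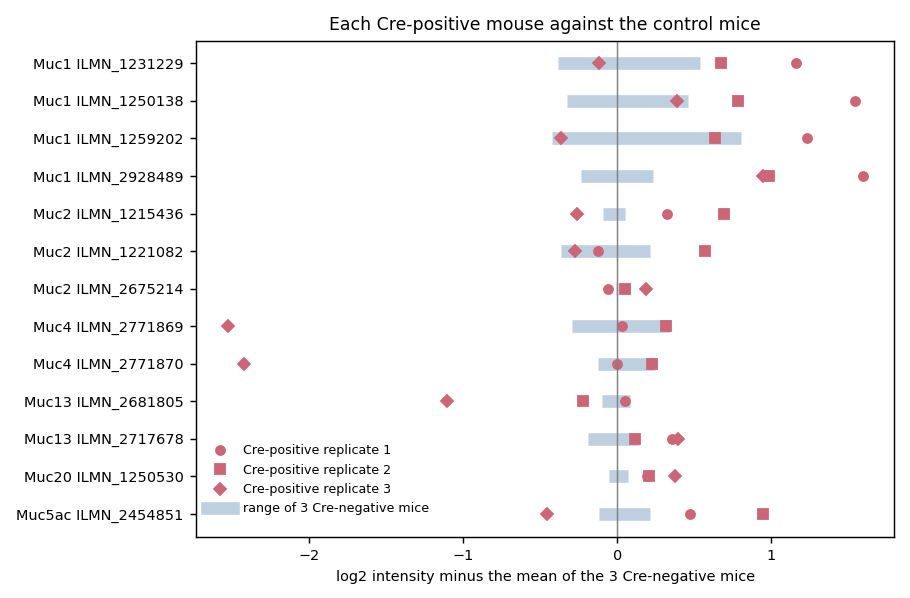
Log2 intensity of each Cre-positive mouse minus the mean of the 3 Cre-negative mice (x axis), for the 13 tested mucin probes (rows), with the range of the Cre-negative mice as a bar. Cre-positive replicate 3 lies at -2.53 and -2.43 for the Muc4 probes. Replicates 1 and 2 lie within the control range there and above the control mean for all 4 Muc1 probes.

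Muc4, a membrane mucin that can bind the receptor ErbB2, was far lower in 1 Cre-positive mouse than in the other 5 mice, and the group difference was not called. ILMN_2771869 was at 7.77, 7.13 and 7.38 in Cre-negative and at 7.46, 7.75 and 4.90 in Cre-positive mice. ILMN_2771870 was at 7.68, 7.32 and 7.31 against 7.44, 7.66 and 5.01. Cre-positive replicates 1 and 2 lay within the range of the controls by both probes, and in replicate 3 neither probe was detected. The differences were -0.73 ± 0.69 and -0.73 ± 0.64 (SE; adjusted p 0.734 and 0.721), and without that replicate 0.18 and 0.11. With sex as a term they were -1.26 and -1.22 (adjusted p 0.333 each), and with sex as a term and without that replicate -0.17 and -0.13.

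The low Muc4 of Cre-positive replicate 3 was a large shift among those on that array. The 2 probes stood -2.60 and -2.47 from the mean of the other 5 arrays, and 0.439% of all tested probes stood as low or lower. Of the 9 colonocyte markers 5 were lowest in this mouse, as were 4 of the 8 epithelium markers and 27.4% of all tested genes. Car1, a carbonic anhydrase of surface colonocytes, was at 11.64 there and no lower than 13.63 elsewhere. Ceacam1, an adhesion molecule of the same cells, was at 9.80 against 12.34 or above. Slc26a3, the chloride exchanger of the colon surface, went the other way, at 10.95 against 9.84 or below. The summed intensity of the 9 markers was 69552 to 84308 in Cre-negative and 42299 to 77996 in Cre-positive mice. The part of these markers in the Muc4 values was not tested. In RNA from whole mucosa, fewer cells of a type and less RNA per cell cannot be told apart. The array of this mouse also had the lowest mean signal, 285, and the fewest detected probes, 19339. Their part in the low values was not tested.

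Muc13, a membrane mucin of the gut surface, gave opposite signs by its 2 probes. ILMN_2717678 was at 14.02, 13.69 and 13.93 in Cre-negative and at 14.24, 14.00 and 14.27 in Cre-positive mice, a difference of 0.29 ± 0.17 (SE; adjusted p 0.700). The groups overlapped through Cre-negative replicate 1 and Cre-positive replicate 2 alone. ILMN_2681805 was at 12.89, 12.77 and 12.95 against 12.92, 12.65 and 11.77, a difference of -0.43 ± 0.29 (SE; adjusted p 0.700). The second difference came largely from Cre-positive replicate 3 and was -0.09 without it. In that mouse the probes thus moved apart, 1 being the highest of the 6 values and the other the lowest. The mean of both probes differed by -0.07 (adjusted p 0.897 over genes).

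Muc20, a small membrane mucin known to bind the receptor Met in human cells, was detected in Cre-positive mice alone. ILMN_1250530 stood at 5.10, 5.01 and 4.98 in Cre-negative mice, not detected on any of those arrays, and at 5.22, 5.24 and 5.41 in Cre-positive mice. With each control value raised to the lowest detected value of its array where below it, the Cre-positive mean was 1.14-fold higher. By the probe's own values it was 1.20-fold, with a 95% interval of 0.942 to 1.52 that included no change. The adjusted p was 0.700. The groups did not overlap, as in 8.06% of all tested probes in this direction, but the 6 values spanned a narrow range near background. As scanned, Cre-positive replicate 3 gave 92.9, beside 92.1 in Cre-negative replicates 1 and 3. The probe entered the test through its detection in Cre-positive mice alone.

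**Figure D3:**
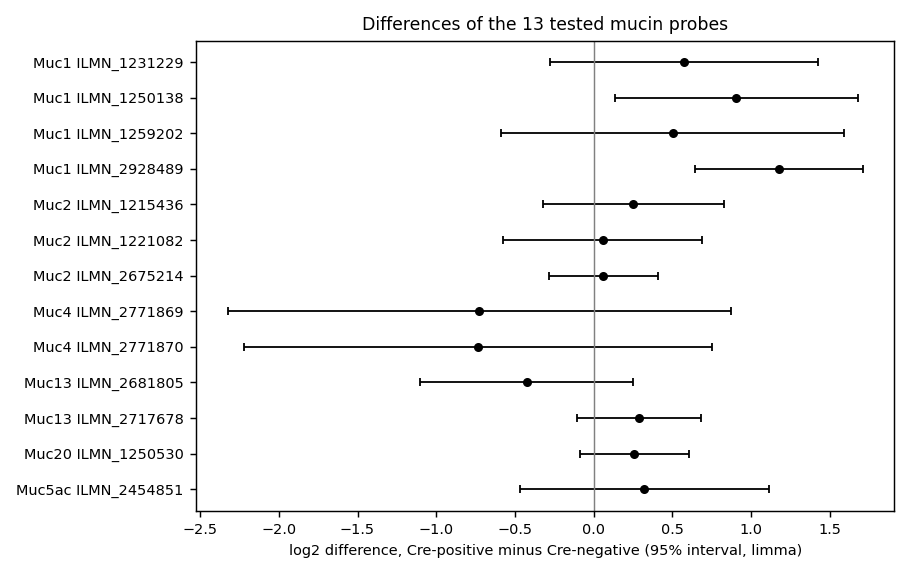
Log2 difference, Cre-positive minus Cre-negative, of the 13 tested mucin probes with its 95% interval from limma. Only the intervals of Muc1 ILMN_2928489 and ILMN_1250138 exclude 0, before any adjustment for the 21183 probes tested.

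For most mucins the intervals left room for sizeable differences. The bounds were 0.200 and 1.83-fold for Muc4 ILMN_2771869, 0.722 and 2.16-fold for Muc5ac ILMN_2454851, and 0.465 and 1.19-fold for Muc13 ILMN_2681805. For the bright probes of Muc2 and Muc13 the upper bounds were 1.33 and 1.60-fold. The only other platform symbol made of Muc and a number was Muc15, with 2 probes detected on 0 arrays. Mucl3, a mucin-like gene, had 2 probes, neither of which was tested.

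The proteins that share the goblet cell granule and the mucus layer with Muc2 were examined next, each gene by its detected probe of highest mean. Of 34 listed genes 30 were tested, with differences above 0 for 23 and below for 7, beside 6635 and 4735 of all tested genes. The median difference was 0.19, beside 0.06 over all 11370 tested genes. It was 0.095 without Cre-negative replicate 3 and 0.10 with median scaling, where the median of all tested probes moved from 0.02 to -0.07. Tff2, a secreted trefoil peptide that binds mucins and is known chiefly from the stomach, rose by 4.06 ± 0.26 (SE; adjusted p 0.00919) and was the 1 gene called, which is 0.0088% of all tested genes. At an unadjusted p under 0.05, 3 were higher, against 2.99% of all tested genes, and 0 lower, against 2.08%.

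Ang4 and Clca1 completed those 3. Ang4, an antimicrobial ribonuclease, was at 8.71, 5.37 and 5.81 in Cre-negative and at 11.72, 9.14 and 12.17 in Cre-positive mice (adjusted p 0.700). Clca1, a metalloprotease of mucus that cleaves Muc2, was at 12.68, 11.87 and 10.91 against 13.74, 13.06 and 13.70, a difference of 1.68 ± 0.43 (SE; adjusted p 0.700). In both genes all Cre-positive values lay above all controls, as in 1048 of all 11370 tested genes. Fcgbp, which is bound to Muc2 in the gel, had a difference of 0.87 ± 0.45 and was detected in 1 of 3 controls, and Foxa3, a transcription factor of the secretory lineage, one of 0.59 ± 0.32 (SE; adjusted p 0.700 each).

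The summed intensity of the 7 goblet cell markers was 29331 to 42699 in Cre-negative and 44201 to 51483 in Cre-positive mice, and without Clca1 27406 to 36156 and 35686 to 38131, so that the sums overlapped once Clca1 was left out. Of the single markers 0 of 7 were called, with 6 differences above 0. Spdef, the transcription factor of goblet cell maturation, was the 1 below 0, with values of 9.50, 9.85 and 8.64 against 9.04, 9.68 and 8.84. Of the markers of tuft, T and NK and myeloid cells 0 were called. All 4 tuft cell markers had an unadjusted p under 0.05 and were higher in Cre-positive mice, against 2.99% of all tested genes, with summed intensities of 198 to 265 against 389 to 441. All 4 tested T and NK cell markers were lower by the same measure, against 2.08%, with sums of 2038 to 4765 against 535 to 1603, as were 3 of 4 myeloid markers, with sums of 324 to 502 against 202 to 247. These lists were known from earlier results of the same arrays, and their part in the mucin values was not tested.

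**Figure D4:**
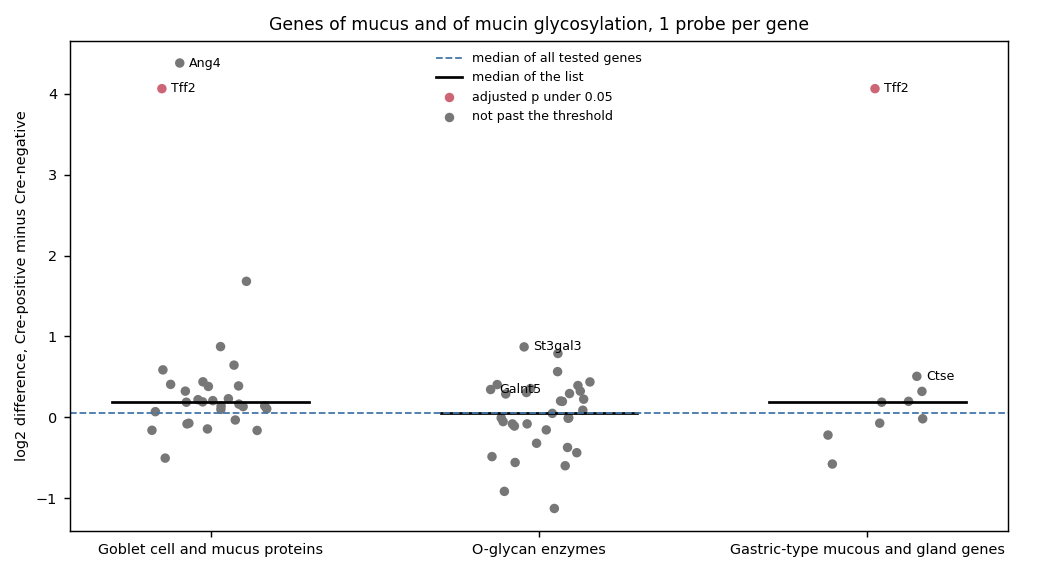
Log2 difference, Cre-positive minus Cre-negative, of each tested gene in 3 lists, with the median of the list as a black line and that of all tested genes dashed. Tff2 is the 1 gene past the threshold, and the list medians are 0.19, 0.05 and 0.19.

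The enzymes and transporters that build O-glycans on mucins were split in direction. Of 41 listed genes 33 were tested, of which 17 were above 0 and 16 below, beside 6635 and 4735 of all tested genes. The median was 0.05, with 0 calls (1 higher and 0 lower at an unadjusted p under 0.05). That 1 of 33 is close to the 2.99% of all tested genes. The median turned to -0.07 with median scaling, where that of all tested probes was also -0.07. St3gal3, a sialyltransferase, had the smallest p, with 9.56, 9.59 and 9.08 against 10.18, 10.09 and 10.57, a difference of 0.87 ± 0.21 (SE; adjusted p 0.700). All 3 Cre-positive mice exceeded the controls, as in 1048 of all 11370 tested genes, while in 603 genes all lay below them. St6galnac4 and St6galnac2, which add sialic acid to the core sugar, had differences of 0.79 ± 0.39 and 0.44 ± 0.23 (SE; adjusted p 0.700 each). Galnt5, which starts O-glycan chains and was not detected in the controls, was 1.19-fold higher by the estimate used for Muc20 (adjusted p 0.700). Galnt5 entered the test through its detection in Cre-positive mice alone. Slc35a1, the Golgi carrier of the sialic acid donor, was at 8.55, 8.53 and 8.75 against 8.22, 8.46 and 6.41, and its difference of -0.92 ± 0.49 (SE; adjusted p 0.700) was largest in Cre-positive replicate 3, though all 3 Cre-positive values lay below the controls.

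Genes typical of gastric mucous cells and glands were mostly at background. Of 21 listed genes 9 were tested, 5 above 0 and 4 below, beside 6635 and 4735 of all tested genes. The median was 0.19. Tff2, which also stands in the goblet list, was the 1 called, while Muc6 was not detected. Ctse, an aspartic protease, was at 10.13, 10.58 and 11.06 against 11.20, 10.84 and 11.25 (adjusted p 0.700). A4gnt, the enzyme that caps the glycans of gland mucins, had a difference of -0.58 ± 0.39, Psca -0.22 ± 0.21, and Sox2, a transcription factor of the stomach and foregut, 0.20 ± 0.17 (SE; adjusted p 0.700, 0.739 and 0.722).

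Finally, the genes whose pattern over the 6 arrays was most like each mucin were found by the root mean square difference of centred log2 values, among 11369 other genes and with each mucin taken by its brightest tested probe. All of them share the same 6 arrays. For Muc1 these were Unc119, Pla2g2a and Cad at 0.26, 0.28 and 0.29, where the median gene was at 0.65. Pla2g2a, a secreted phospholipase, was at 8.50, 9.93 and 8.81 against 10.31, 9.84 and 9.55. For Muc4 they were Agpat2, Lpp and Syngr2 at 0.13, 0.16 and 0.16, where the median gene was at 0.99. Each of these 3 was low in Cre-positive replicate 3 alone, as in Agpat2, an enzyme of phospholipid and triglyceride synthesis, at 10.26, 9.87 and 9.97 against 9.72, 10.05 and 7.37. For Muc5ac they were Usf3, Mcm3 and Eml3 at 0.14, 0.14 and 0.18, against 0.52 for the median gene. The bright probes of Muc2 and Muc13 and the Muc20 probe varied little, and their nearest genes were Aspn, Rpl38 and Ghrl, then Mink1, Mcam and Ccdc137, then Zfand2b, Irf3 and Pkp4.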

How the data were processed

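RNA was extracted with a kit, treated with DNase and amplified to biotinylated cRNA, per the labels' protocols. The deposited unprocessed table holds linear signal intensities of each probe, background included, and a detection p-value per probe and array, per the file headers. From the values, that deposited p-value is also small for probes dimmer than background. A second deposited table holds the authors' processed intensities, linear, whose normalization method is not given in the sources used here. Its column medians were 93.2, 93.3 and 92.9 for Cre-negative and 93.3, 93.1 and 94.8 for Cre-positive replicates 1 to 3. Slides, scan dates and probe positions were not used.

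Intensities were corrected with normexp (saddle-point, offset 16), quantile normalized and put on the log2 scale with limma 3.58.1 in R 4.3.3. Detection required p under 0.05 and a signal above array background, estimated by the median over probes whose p exceeded 0.97. The 21183 probes detected on at least 3 arrays were fitted together (lmFit, eBayes, 2-sided, no covariate). Of 45135 probes 34773 have 1 gene symbol, 18 several and 10344 none in the table used. Symbols were updated with RefSeq gene numbers. The members, lists and tests were chosen with earlier results of these data known. Genes outside the mucins were named by a fixed rule: the 5 of smallest p per companion list and the 3 nearest in pattern per mucin. Car1, Ceacam1, Slc26a3 and Spdef were named as cell type markers after their values were seen. The fit was tested on simulated data. Animals are separate, per the labels. Replicate numbers do not pair them: the correlations of same-numbered arrays' deviations were -0.13, -0.10 and 0.03. Alternatives changed background correction, offset, source of values, normalization, filter, unit, moderation and weights, added sex or the replicate block, and left out each array. The mean of each gene's probes and the goblet marker sum without Clca1 were added after the data had been seen.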

Additional observations from a re-analysis of the deposited data

How the results depend on the processing

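Of 241 recomputed mucin probe differences under other settings, 231 kept their direction and their side of the threshold, 9 changed sign and 1 passed the threshold; the causes were not tested except where the omitted array shows it. The 1 pass was Muc1 ILMN_2928489 with array weights (1.51), from weights whose estimation stopped before it converged, so that 1 mucin probe was called there and 0 in each of the other settings. The sign of Muc2 ILMN_1221082 turned with array weights (-0.11) and sex as a term (-0.066), that of Muc2 ILMN_2675214 with array weights (-0.042), and that of Muc13, from its probe ILMN_2717678, with the mean of its probes (-0.068). Leaving out 1 array at a time gave -0.20 to 0.22 for Muc2 ILMN_1221082 and -0.0045 to 0.12 for ILMN_2675214. For Muc13 ILMN_2681805, at -0.43 with all arrays, it gave -0.66 to -0.09. For Muc4 it gave -1.25 to 0.18 and -1.21 to 0.11, with the positive values without Cre-positive replicate 3. The 1 probe called higher over the whole table became 6 with array weights and 0 with the authors' processed values, median scaling or no background correction, and 0 to 1 with an array left out. The 0 called lower became 2 with array weights and 2 with sex as a term and without Cre-positive replicate 3 together, and 0 to 0 with an array left out. The median of the gastric-type list was 0.19 over all arrays. It was 0.076 with the authors' values, 0.51 with genes detected on all 6 arrays, 0.10 with median scaling, 0.069 without background correction, 0.10 with the offset of 50, 0.073 with sex as a term and 0.035 to 0.18 with an array left out. With the replicate number as a block the Muc1 ILMN_2928489 difference was 1.18 (adjusted p 0.748) and 0 mucin probes were called, so the block changed no mucin call. Median scaling moved the median of all tested probes from 0.02 to -0.07. Probes near background (Muc20, Muc5ac and the dimmer Muc2 probes) are limited by their signal.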
